A study of Mus musculus with 6 samples.

Results

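The 10 transcripts described here, Gpm6a, Pkhd1l1, Bnc1, Lrrn4, Upk3b, Upk1b, Msln, Wt1, Krt19 and Nkain4, are known from mesothelium and were chosen by their log2 intensity in BLS12, a mouse lymph node stromal cell line, where most of them were high. They were found by gene symbol among 19938 genes with a probe set of their own, and each of the 10 had exactly 1 entry. Total RNA had been measured on 6 single-colour Affymetrix arrays, with 1 array per group and no replicate of any group. BLS12 and BLS4 were lines derived from lymph nodes of BALB/cA mice and grown in culture. Each was measured unstimulated and after 2 days with 1 µg/ml of goat polyclonal anti-mouse LTβR, an agonist of the lymphotoxin β receptor, and no array had a control antibody. The labels did not say whether each line is 1 clone. The fifth array held cultured fibroblasts (MEF) of C57BL/6JJcl mouse embryos, E11.5-13.5. The last held the lymph node (LN) stromal fraction sorted without culture from adult C57BL/6JJcl mice as CD45-CD31-podoplanin+VCAM-1+ cells. Comparisons of the lines with MEF or LN stroma also compared strain, and for LN stroma culture and for MEF developmental stage, which cannot be told apart from the kind of cell. The number of animals was not given in the labels. In the LN fraction, the sorting markers Pdpn and Vcam1 measured 10.20 and 11.90 log2 intensity, while Ptprc, which encodes CD45, measured 5.70 and Pecam1, which encodes CD31, 6.44. Array medians lay between 5.69 and 5.82 log2 intensity. The files gave no detection call, so the size of a difference is approximate where its lower level lies below the array median.

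Mesothelium is the flat cell sheet that lines the body cavities and covers the organs in them. Its cells carry keratins and surface glycoproteins like an epithelium, yet arise from mesoderm and can turn into fibroblasts. Mesothelin, the product of Msln, is anchored on their surface and binds the mucin Muc16. Wt1, a zinc finger transcription factor needed for kidney and gonad development, is active in embryonic mesothelium. Uroplakins, of which Upk1b and Upk3b are members, are best known from the plaques of the bladder surface.

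Gpm6a, Pkhd1l1, Bnc1 and Lrrn4 stood furthest above the rest in BLS12, while Upk1b and Krt19 were brightest in MEF. Wt1 ran from 6.33 to 7.10 log2 intensity over all arrays. Because high levels in BLS12 had chosen the 10, what follows on that point is description and has no test. Fewer cells that express a transcript and less RNA of it per cell cannot be told apart in RNA from a whole culture or sort. Gpm6a, a membrane glycoprotein best known from neurons, had a log2 intensity of 11.77 in unstimulated BLS12, 9.79 in BLS12 with antibody, 4.47 and 4.71 in BLS4 without and with antibody, 7.90 in MEF and 7.16 in LN stroma. Both BLS12 arrays lay above all others, MEF and LN stroma came next, and BLS4 lay below the array median. Averaged over the arrays of each line, BLS12 exceeded BLS4 by 6.19 log2 units, or 73.1-fold.

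Bnc1 encodes basonuclin, a zinc finger protein known from keratinocytes and germ cells. Its log2 intensity was 11.10 and 10.20 in BLS12 without and with antibody, 5.89 and 6.19 in BLS4, 5.73 in MEF and 4.81 in LN stroma. It had the widest gap of the 10, with the lower BLS12 array 4.01 log2 units above the highest other array, and MEF and LN stroma lay below their array medians. Pkhd1l1, which encodes a very large membrane protein found on the stereocilia of mouse hair cells, measured 9.55 and 8.29 in BLS12, 3.99 and 4.05 in BLS4, 5.31 in MEF and 4.86 in LN stroma on the log2 scale. All 4 arrays outside BLS12 lay below their medians for Pkhd1l1. Lrrn4, a leucine-rich repeat membrane protein, measured 10.02 and 8.88 in BLS12, 5.47 and 5.30 in BLS4, 6.46 in MEF and 6.82 in LN stroma. Its lower BLS12 array lay 2.05 log2 units above LN stroma, the next array.

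Upk3b, Nkain4 and Msln also had both BLS12 arrays on top, with smaller gaps. Upk3b had a log2 intensity of 10.17 and 8.61 in BLS12, 6.47 and 6.18 in BLS4, 8.04 in MEF and 8.03 in LN stroma. The antibody-treated BLS12 array was 0.57 log2 units above MEF. Nkain4, named for its interaction with the sodium pump, measured 10.42 and 9.22 in BLS12, 7.18 and 7.27 in BLS4, 8.31 in MEF and 7.94 in LN stroma. Its BLS12 arrays again lay above the others, by 0.91 at the closest. Msln measured 8.44 and 7.55 in BLS12, 6.17 and 6.02 in BLS4, 7.53 in MEF and 6.83 in LN stroma. Antibody-treated BLS12 and MEF were 0.02 apart, and with each array centred on its median their order turned (-0.06).

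The remaining 3 did not follow the pattern. Upk1b, a tetraspanin of the uroplakin family, had its highest log2 intensity in MEF, 9.21, against 7.96 and 6.59 in BLS12, 5.23 and 5.61 in BLS4 and 6.98 in LN stroma. LN stroma lay between the BLS12 arrays. Krt19, a keratin of simple epithelia, likewise was highest in MEF, at 8.72, with 7.45 and 6.53 in BLS12, 5.65 and 5.64 in BLS4 and 7.07 in LN stroma. Wt1 measured 6.76 and 7.10 in BLS12, 6.33 and 6.41 in BLS4, 6.42 in MEF and 7.04 in LN stroma. The Wt1 arrays spanned less than 1 log2 unit, and LN stroma lay between the BLS12 arrays.

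In all, both BLS12 arrays lay above the other 4 for 7 of the 10 transcripts. Over all genes this held for 12.4%, a share from which nothing is read here, since the same levels had chosen the 10. BLS4 had the lowest mean level of the 4 cell kinds for 9 of them, the exception being Bnc1, for which LN stroma was lowest. The share of all genes with BLS4 lowest was not counted, and BLS4 was a comparator in the choice. Nothing is read from this count either. As a yardstick chosen after seeing the data, 95% of genes differed by less than 0.60 log2 units between the 2 BLS4 arrays. By that yardstick MEF and LN stroma were not separated for Pkhd1l1, Lrrn4, Upk3b and Nkain4, nor BLS12 and LN stroma for Upk1b and Krt19, nor BLS12 and MEF for Msln, nor BLS4 and MEF for Bnc1. For Wt1 no neighbours in the order of the 4 cell kinds were separated, though LN stroma lay 0.62 above MEF and 0.67 above the BLS4 mean.

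**Figure D1:**
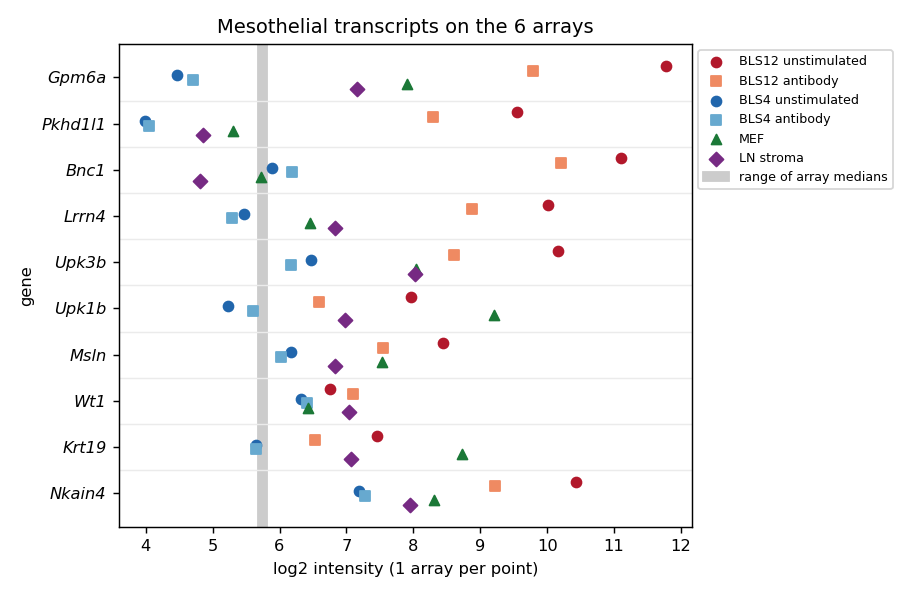
Log2 intensity (horizontal axis) of each of the 10 transcripts (vertical axis) on the 6 arrays, 1 point per array, with a grey band for the range of array medians. BLS12 points lie furthest right for Gpm6a, Pkhd1l1, Bnc1 and Lrrn4, MEF lies furthest right for Upk1b (9.21) and Krt19 (8.72), and Wt1 points lie close together.

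RefSeq promoter sequence (GRCm38.p6) was at hand for 4 of the 10, Gpm6a, Bnc1, Lrrn4 and Upk3b, which had 4 of the 5 largest differences between the lines. The 250 bases before the start site are shown because these genes shared high levels in BLS12, the property that chose them. Outside BLS12 they differed, with BLS4 lowest for Gpm6a, Lrrn4 and Upk3b and LN stroma lowest for Bnc1. Capitals mark CATTCC on either strand, the core bound by TEAD factors, in Gpm6a (its first start site), Lrrn4 and Upk3b, and GGGCGG on either strand, the GC box, in Bnc1.
Gpm6a, chr8:54779184-54779433, plus strand: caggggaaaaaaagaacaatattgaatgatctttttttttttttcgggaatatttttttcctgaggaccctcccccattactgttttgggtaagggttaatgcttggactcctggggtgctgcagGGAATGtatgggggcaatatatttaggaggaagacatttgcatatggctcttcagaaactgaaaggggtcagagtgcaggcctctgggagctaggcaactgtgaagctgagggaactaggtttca
Lrrn4, chr2:132880863-132881112, minus strand: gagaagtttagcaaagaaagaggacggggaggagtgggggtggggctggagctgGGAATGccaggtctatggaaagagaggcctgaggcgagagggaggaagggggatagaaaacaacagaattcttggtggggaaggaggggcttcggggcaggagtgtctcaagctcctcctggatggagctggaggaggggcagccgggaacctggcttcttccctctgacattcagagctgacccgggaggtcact
Upk3b, chr5:136038246-136038495, plus strand: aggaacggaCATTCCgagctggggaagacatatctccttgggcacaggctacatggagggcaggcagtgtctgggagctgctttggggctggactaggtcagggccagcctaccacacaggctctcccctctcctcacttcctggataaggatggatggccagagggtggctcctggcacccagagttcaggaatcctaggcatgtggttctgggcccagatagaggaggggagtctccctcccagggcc
Bnc1, chr7:81992300-81992549, minus strand: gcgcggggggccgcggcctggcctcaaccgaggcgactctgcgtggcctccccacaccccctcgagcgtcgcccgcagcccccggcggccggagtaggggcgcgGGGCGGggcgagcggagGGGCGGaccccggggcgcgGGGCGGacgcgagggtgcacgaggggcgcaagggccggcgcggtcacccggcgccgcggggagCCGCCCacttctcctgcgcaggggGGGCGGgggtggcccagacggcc
CATTCC occurred in 3 of the 5 windows of these genes (Gpm6a has 2), against 12.6% of 32851 promoter windows of this length in the table. In Gpm6a it began 125 bases before the start, in Lrrn4 196 and in Upk3b 241, and the second Gpm6a start site had no match. The Bnc1 window held 5 GC boxes (32.7% of all windows held at least 1) and was 83.6% G and C, against 44.4% for the first Gpm6a window, 59.2% for Lrrn4, 60.8% for Upk3b and a median of 52.4% over all windows. On both strands 3 further motifs had no match in the windows of the 4 genes: AGATAA, a core of the GATA family that 9.99% of all windows held, GCGTGGG, shared by WT1 and EGR factors (4.3%), and a κB motif of 3 G, any 2 bases, 3 T and 2 C (1.41%). TATAAA, held by 12.4% of windows, occurred in the second Gpm6a window alone. Which motif to mark was set gene by gene out of those searched, so nothing is read from the shares. These are matches of letters, and no binding was measured.

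With the antibody, 9 of the 10 transcripts had lower levels in BLS12, with differences from -1.99 to -0.89 log2 units, while in BLS4 all 10 stayed within 0.38 of the unstimulated level. The comparison used each line as its own control, with 1 array a side. In BLS12 the difference was -1.99 for Gpm6a, from 11.77 to 9.79, a 3.97-fold lower level, and -1.56 for Upk3b, a 2.95-fold lower level. It was -1.37 for Upk1b, -1.26 for Pkhd1l1, -1.20 for Nkain4 and -1.14 for Lrrn4. Krt19 (-0.92), Bnc1 (-0.90) and Msln (-0.89) were less than 2-fold lower, and Wt1 alone was higher, by 0.34. In BLS4 the differences ran from -0.29 for Upk3b to 0.38 for Upk1b, with a median of 0.07. Unstimulated BLS4 lay below its array median for 5 of the 10 (Gpm6a, Pkhd1l1, Lrrn4, Upk1b and Krt19).

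At least 2-fold lower levels with antibody were found for 6 of the 10 in BLS12, and 0 were at least 2-fold higher. Of all genes kept in BLS12, 2.13% were at least 2-fold lower and 1.6% at least 2-fold higher, and 6767 were lower at all. The median was -1.17 for the 10 and -0.05 for all 11988 genes. In BLS4 none of the 10 was 2-fold lower or higher, where 0.601% of genes were lower and 0.968% higher. A nearer comparison, chosen after seeing the data, is with 182 other genes whose level in unstimulated BLS12 lay at least 1 log2 unit above every array outside BLS12. Of these, 70 (38.5%) were at least 2-fold lower with antibody, 168 were lower at all, and their median was -0.84. Of the 10 transcripts 6 met that criterion, namely Gpm6a, Pkhd1l1, Bnc1, Lrrn4, Upk3b and Nkain4, of which 5 were at least 2-fold lower (median -1.23). Of 14 other genes with both BLS12 arrays at least 2 log2 units above the rest, a set that asks for a high level with antibody too, 1 (7.14%) was at least 2-fold lower, with a median of -0.27. Pkhd1l1 (-1.26), Bnc1 (-0.90) and Lrrn4 (-1.14) were those of the 10 that met this stricter criterion. The 2 sets of other genes differed in the arrays used and also in the gap asked for, 1 and 2 log2 units. What made their shares differ was not tested. The unstimulated array had helped to choose the 10 and was also the baseline of this comparison, so the choice and the difference are not independent.

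**Figure D2:**
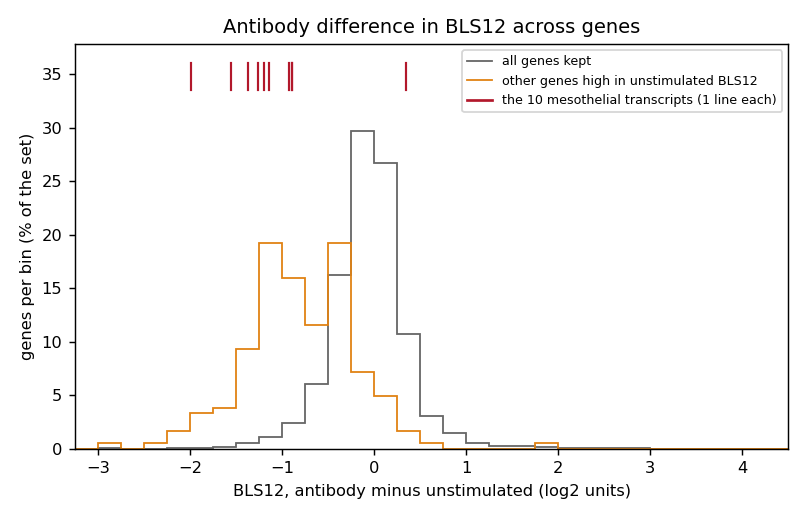
Histogram of the antibody minus unstimulated difference in BLS12 (log2 units, bins of 0.25) for all 11988 genes kept and for the 182 other genes high in unstimulated BLS12, as the percentage of each set per bin. Red lines at the top mark the 10 transcripts, whose vertical position has no meaning: 9 lie to the left of zero, in the range where the 182 genes (median -0.84) also lie.

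Over both lines together, 0 of the 10 passed in limma's additive model of line and antibody (two-sided, Benjamini-Hochberg over 11988 genes, threshold 0.05), and 3 had an unadjusted p under 0.05. In that model 33 genes passed, or 0.275%, and 1396 of the 11988 had an unadjusted p under 0.05. Upk3b had a difference of -0.93 (SE 0.302, adjusted p = 0.346 in limma, lower in 2 of 2 lines), Gpm6a -0.87 (SE 0.492, adjusted p = 0.570, lower in BLS12 only) and Lrrn4 -0.66 (SE 0.245, adjusted p = 0.401, lower in 2 of 2 lines). Msln (-0.52) was the other with an unadjusted p under 0.05, and Wt1 had the sole positive estimate, 0.21. The model had 1 residual degree of freedom, the disagreement between the lines, so a difference in BLS12 alone raises the error. Gpm6a, Pkhd1l1, Lrrn4, Upk1b and Krt19 were below the array median on both BLS4 arrays and passed the filter through BLS12 alone. For these 5 a lower level in BLS4 could hardly be measured, and the model had little chance to call them. Whether the lines differed in their response could not be tested, as no array repeats a line and condition. Nothing in the labels said that arrays came from separate cultures, so the p-values cover no more than the spread of these arrays, and that spread may be technical.

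**Figure D3:**
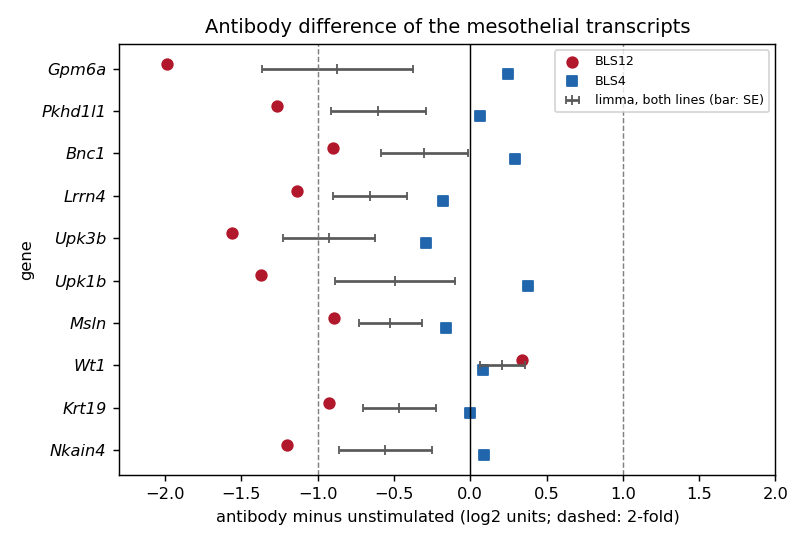
Antibody minus unstimulated difference (horizontal axis, log2 units) of the 10 transcripts in BLS12 (circles) and BLS4 (squares), 1 array a side, and limma's estimate over both lines with its SE (grey bars). Dashed lines mark 2-fold: 6 transcripts lie beyond it in BLS12 and 0 in BLS4.

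Among 10 leukocyte genes the summed linear intensity went from 467 in unstimulated BLS12 to 1090 with antibody. The lysozyme gene Lyz2 made most of this (7.82 to 9.63 log2 intensity), while Ptprc measured 4.06 and 4.32 and the macrophage receptor gene Csf1r 5.29 and 5.65, all below the medians. Summed levels of 12 endothelial genes were 592 and 573 on the same arrays and of 22 general epithelial genes 948 and 972. The part of such markers in the antibody difference was not tested.

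Freshly sorted LN stroma held these transcripts at levels above both BLS4 arrays for 9 of the 10, and below MEF for 8 of the 10, Lrrn4 and Wt1 being higher in LN stroma. For Upk3b the difference from MEF was -0.01, and after quantile normalization it was 0.10. Against the BLS4 mean, 9 of the 10 had an array at or above its median and could be counted, Pkhd1l1 being the exception. Of the 9, 8 were higher in LN stroma, as were 5312 of 12645 genes. At least 2-fold higher were 5, where 9.07% of genes were, and 1 was at least 2-fold lower, against 7.68%. The 5 were Gpm6a (2.57 log2 units higher), Upk3b (1.71), Upk1b (1.56), Lrrn4 (1.44) and Krt19 (1.43), and the lower one was Bnc1 (-1.23). Against MEF, 8 of the 10 were counted, without Pkhd1l1 and Bnc1. Of these, 6 were lower in LN stroma, as were 7168 of 12613 genes, and 0 were at least 2-fold higher (10.2% of genes). Lower by at least 2-fold were 2, Upk1b (-2.23) and Krt19 (-1.65), against 12.1% of genes. The same LN stroma array served both comparisons, each had a lone array on at least 1 side, and neither had a test. LN stroma was sorted from adults without culture, and MEF were cultured from embryos. Sorting, culture and stage thus cannot be told apart from the kind of cell. BLS12 was compared with BLS4, MEF and LN stroma alike, so their levels may depend in part on how the 10 were chosen. The counts against BLS4 and against MEF are therefore description.

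MEF exceeded the BLS4 mean for 9 of the 10, by 3.80 log2 units for Upk1b, 3.31 for Gpm6a and 3.08 for Krt19, and fell short of it for Bnc1 (-0.31). The same limit on these levels holds here, and the share over all genes was not counted, so nothing is read from this count. In MEF the summed level of the leukocyte genes was 2159, against 434 to 1090 on the other arrays, and of 10 neuronal genes 1617, against 544 to 931. LN stroma had the highest summed level of endothelial genes, 1013, with 934 in MEF and 559 to 592 in the lines. Such linear sums weigh the brightest genes most. In MEF these were Lyz2 (10.36 log2 intensity) and, of the neuronal genes, Gap43 (9.16) and Stmn2 (8.88). The leukocyte genes Laptm5 (7.64) and Csf1r (7.06) were also highest in MEF. Tek (8.18) was the brightest endothelial gene in LN stroma. The part of these markers in the levels of the 10 transcripts was not tested.

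Further genes known from mesothelium, a list of 36 chosen with earlier results of these data known, were split. In limma, of the 22 tested, 11 were higher in BLS12 than in BLS4, 2 lower and 9 did not pass, with a median of 0.69 log2 units. Of all genes 12.2% were higher in BLS12 and 11.4% lower, with a median of 0.00. Without the antibody term in the model, 8 of the 22 were higher and 0 lower. The arrays of a line differ in antibody and are not repeats, so these differences hold for BLS12 and BLS4 and not for kinds of line. Gata6, a transcription factor of mesoderm and endoderm, was higher in BLS12 by 3.25 (SE 0.255, adjusted p = 0.00156 in limma), and its log2 intensity was 10.69 and 10.48 in BLS12, 6.93 and 7.73 in BLS4, 7.60 in MEF and 10.17 in LN stroma. Gata6 in LN stroma thus stood near BLS12 and not near BLS4. Ezr, which encodes ezrin, the link between membrane and actin in microvilli, was higher by 3.06 (SE 0.320, adjusted p = 0.00367), at 11.16 and 10.04 in BLS12, 7.41 and 7.66 in BLS4, 9.14 in MEF and 7.59 in LN stroma.

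Aldh1a1, a retinaldehyde dehydrogenase, was higher in BLS12 by 2.43 (adjusted p = 0.000814 in limma), the zinc transporter gene Slc39a8 by 1.74 (adjusted p = 0.0023), the polarity gene Crb2 by 1.66 (adjusted p = 0.013) and Cdh2, which encodes N-cadherin, by 1.21 (adjusted p = 0.00461). Gata4 was also higher, by 1.09 (adjusted p = 0.0256). Tbx18, a transcription factor of the embryonic epicardium, was lower in BLS12 by -0.61 (adjusted p = 0.0333). Podoplanin (Pdpn, -0.20, adjusted p = 0.506), by which the LN fraction had been sorted, and Efemp1 (-0.36, adjusted p = 0.119) did not pass. In BLS12 with antibody, 14 of these 22 were lower, with a median of -0.29, where 6767 of 11988 genes were lower. At least 2-fold lower were 2, Ezr (-1.12) and Igfbp5 (-1.38, named after its value was seen), against 2.13% of genes. In LN stroma, 30 of the 36 could be counted against MEF, of which 10 were at least 2-fold higher and 3 lower (10.2% and 12.1% of genes). Against BLS4 30 could be counted, of which 11 were at least 2-fold higher and 1 lower (9.07% and 7.68% of genes).

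Several defining mesothelial and epithelial markers were low in BLS12 or did not differ past the threshold between the lines. Calb2, which encodes calretinin, was below the median on all 6 arrays (3.92 to 4.19 log2 intensity), as was Muc16 (3.59 to 3.80), the partner of mesothelin. The keratins Krt7 (difference 0.02, adjusted p = 0.946 in limma), Krt8 (0.25, adjusted p = 0.243) and Krt18 (0.25, adjusted p = 0.237) did not differ past the threshold between the lines. They were not low, at 6.64 and 6.69, 6.79 and 6.52, and 5.91 and 6.10 in BLS12, all above the array medians. Podxl lay between 5.36 and 5.84 on all arrays. The E-cadherin gene Cdh1 measured 5.59 on both BLS12 arrays, below the median, and at most 6.06, in LN stroma. Aldh1a2, the retinoic acid enzyme of embryonic mesothelium, was below the median in BLS12 (4.58 and 4.67) and BLS4 but not in MEF or LN stroma (6.33). Wt1 lay above the median on all 6 arrays, from 6.33 to 7.10, and Calb2 and Muc16 were low. The name mesothelial thus describes where the 10 transcripts are known from. The arrays do not settle it as the kind of cell that BLS12 is.

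General epithelial genes had 0 calls among 6 tested of 22 in limma, and 15 of the 22 lay below the median on all 6 arrays. Urothelial genes, included because uroplakins are among the 10, had 0 calls among 4 tested of 10. Of 10 podocyte and Sertoli cell genes, included because of Wt1, 8 had an entry and 3 were tested; Synpo was higher in BLS12 by 0.87 (adjusted p = 0.0143 in limma) and Sox9 lower, by -2.02 (adjusted p = 0.00461). Neuronal genes, included because of Gpm6a, had 0 calls among 2 tested, leukocyte genes 0 among 2, and endothelial genes 1 among 5, Tek, by 0.65 (adjusted p = 0.0410), a call that was lost after quantile normalization and without the antibody term.

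Of 7 transcription factors of the mesenchymal state, 4 were lower in BLS12 than in BLS4 and 0 higher, with a median of -0.61. Snai2 differed by -1.33 (adjusted p = 0.0147 in limma), Snai1 by -1.22 (adjusted p = 0.00736), Zeb2 by -0.96 (adjusted p = 0.00871) and Zeb1 by -0.61 (adjusted p = 0.0345). All 4 lay above the array median in BLS12, for example Snai1 with 7.29 and 7.49 and Snai2 with 7.66 and 7.83. Of 18 tested fibroblast genes, 3 were higher in BLS12, 6 lower and 9 did not pass. Lower were the matricellular gene Postn (-5.75), Dpt (-4.22), Mfap5 (-3.68), Loxl1 (-3.55), Fbln1 (-2.23) and Pdgfrb (-1.91). Dcn, which encodes decorin, was higher by 3.27 (adjusted p = 0.000971 in limma), with 13.64 and 13.39 log2 intensity in BLS12, 9.97 and 10.50 in BLS4, 9.52 in MEF and 13.81 in LN stroma. Thy1 (1.25) and the collagen gene Col3a1 (0.90) were also higher. Of 11 tested LN stromal genes, 2 were higher in BLS12, Icam1 (2.46) and Vcam1 (0.90), and 3 lower, Ch25h (-2.42), Grem1 (-2.39) and Cxcl12 (-2.17). Without the antibody term 0 of these were higher and 1 was lower.

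**Figure D4:**
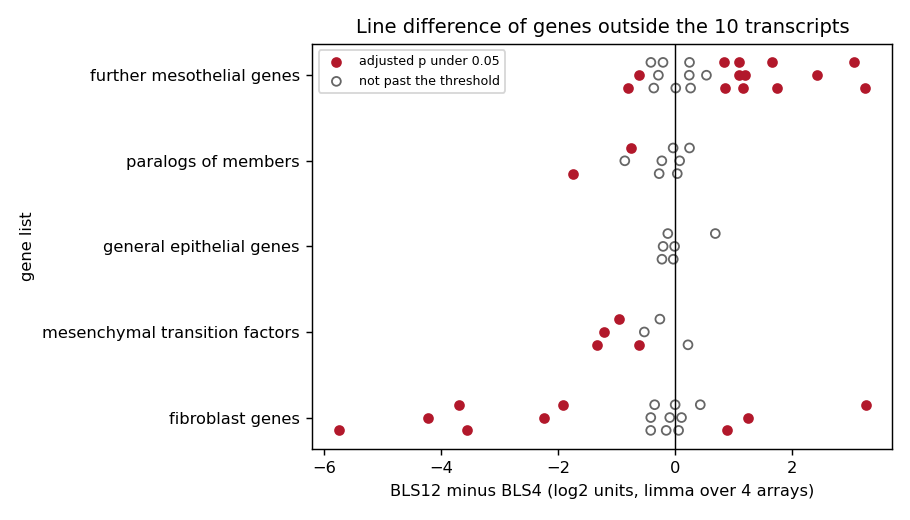
BLS12 minus BLS4 difference (horizontal axis, log2 units, limma over the 4 line arrays) of the tested genes of 5 lists (vertical axis), none of them among the 10 transcripts; vertical offsets within a list only separate points. Filled points passed the threshold of 0.05: 11 of 22 further mesothelial genes lie to the right, and 4 of 7 mesenchymal transcription factors to the left.

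Close relatives of the 10 in their gene families did not share the high levels in BLS12. Gpm6b, the paralog of Gpm6a, ran the other way, with 6.18 and 6.93 log2 intensity in BLS12, 7.89 and 8.68 in BLS4, 9.13 in MEF and 9.96 in LN stroma. It was lower in BLS12 by -1.73 (SE 0.137, adjusted p = 0.00157 in limma), and with antibody it was higher by 0.76 in BLS12 and 0.79 in BLS4. Bnc2 had 7.40 and 6.44 in BLS12 and 7.55 to 8.70 elsewhere. Its antibody difference was -0.96 in BLS12 and 0.19 in BLS4, beside -0.90 and 0.30 for Bnc1. The bladder uroplakin genes Upk1a (5.77 to 6.10), Upk2 (5.91 to 6.46) and Upk3a (5.49 to 5.87) were within 1 log2 unit of the median on every array. Pkhd1 (4.38 to 4.86), Mslnl (5.09 to 5.41), Krt15 (5.24 to 5.62), Krt17 (4.71 to 4.92), Krt20 (4.69 to 5.19) and Nkain3 (4.94 to 5.59) were below the medians throughout.

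Lrrn1 and Lrrn3 were below the median in both lines, and Lrrn1 reached 6.41 in MEF. Lrrn2 lay between 6.46 and 7.20 and Nkain2 between 6.03 and 6.62. Egr1, whose zinc fingers resemble those of Wt1, was lower in BLS12 by -0.76 (adjusted p = 0.0202 in limma), and reached 11.58 in LN stroma. Of the 17 relatives with an entry, 9 were tested, 0 were higher in BLS12 and 2 were lower, Gpm6b and Egr1, and without the antibody term 0 were lower.

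By a rule of likeness over the 6 arrays, 14 other genes had both BLS12 arrays at least 2 log2 units above all others. The 10 whose profile correlated best with the mean profile of the transcripts were Vat1l (Pearson's r of 0.966), Arhgap18 (0.958), Cd55 (0.934), Myrf (0.931), Pde7b (0.915), Gimap9 (0.898), Soga3 (0.872), Tubb4a (0.870), Rpp25 (0.868) and Ptgis (0.848). These r values describe 6 arrays dominated by the contrast of BLS12 with the rest, and arrays of a line share their source. Vat1l measured 10.73 and 8.83 in BLS12, 4.89 and 4.82 in BLS4, 6.65 in MEF and 4.99 in LN stroma. Its antibody difference in BLS12 was -1.90, the only one of the 14 past 2-fold. Ptgis, the prostacyclin synthase gene, measured 10.67 and 10.27 in BLS12, 7.56 and 7.34 in BLS4, 7.12 in MEF and 7.28 in LN stroma. Cd55, a complement regulator, and Tubb4a were 0.17 and 0.18 higher with antibody in BLS12.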

How the data were processed

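RNA of 6 samples, 1 array each, had been hybridised to single-colour Affymetrix arrays. The deposited values were linear intensities, 1 per probe set entry. Affymetrix Expression Console 1.1 is named as the tool, per the submitters' processing notes. How it was set to summarise and normalize, and the genome build, are not given in the sources used here. Linear values ran from 3.55 to 24064, and log2 was taken without a pseudocount. With 1 array a group, precision is limited by that number, and no counting error can be given.

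Of 35557 entries, 21789 named 1 gene in the platform annotation and were used. For 999 genes with several entries the brightest was taken. limma 3.58.1 in R 4.3.3 (lmFit, eBayes, additive in line and antibody) ran over the 4 line arrays on the 11988 genes with at least 2 of the 4 at or above the array median. Its antibody term was tested on simulated data with the same change in both lines. There, false calls were somewhat more frequent than the threshold allows and small changes were mostly missed. A change in 1 line alone was not simulated, nor was the line term. eBayes used a prior SD of 0.151 with 4.59 degrees of freedom. LN stroma comparisons kept genes with at least 1 array compared at or above its median and counted 2-fold differences. Intensity ranks between genes were not used, since probe sets differ in brightness.

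The 10 transcripts and all gene lists were chosen with earlier results of these data known. Named were the 10, their paralogs, up to 6 called genes a list with the largest line difference, a fixed set of marker genes, and the 10 genes most like the transcripts. Alternatives were centring, quantile normalization, the mean of a gene's entries, no filter, other thresholds, limma-trend and models without line or antibody.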

Additional observations from a re-analysis of the deposited data

Results flagged for a closer look

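In 5 of the 10 transcripts the antibody difference had opposite signs in the lines, lower in BLS12 and higher in BLS4. Each rests on 1 array a side, and the difference between the lines was not tested. Over all 11988 genes kept, 6767 were lower with antibody in BLS12 and 6386 were higher in BLS4. Genes with both signs at once were not counted, so the count of 5 has no share to set it against. The BLS12 difference minus the BLS4 difference was -2.23 log2 units for Gpm6a (-1.99 and 0.25), -1.75 for Upk1b (-1.37 and 0.38), -1.32 for Pkhd1l1 (-1.26 and 0.06), -1.29 for Nkain4 (-1.20 and 0.09) and -1.19 for Bnc1 (-0.90 and 0.30). In BLS4 these values lay within 0.60 log2 units, the range that held 95% of genes. Gpm6a, Pkhd1l1 and Upk1b were below the array median on both BLS4 arrays, where a lower level could hardly be measured, so their sign in BLS4 carries little.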

How the results depend on the processing

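The count of transcripts at least 2-fold lower with antibody in BLS12 was 6, also after quantile normalization and without the filter, and 9 with arrays centred on their median or at 1.5-fold. In limma 0 of the 10 passed under all 6 alternatives run, with adjusted p from 0.229 upward. Over all genes 98 passed for the antibody with arrays centred, 6 after quantile normalization, 54 without the filter and 0 without the cell line term, against 33. At 4-fold in place of 2-fold, LN stroma was lower than MEF for 1 of the 10, and against BLS4 higher for 1 and lower for 0. Without the antibody term, the counts were 8 higher and 0 lower in BLS12 for further mesothelial genes, 0 lower for paralogs, 0 higher for endothelial genes, and 0 higher and 1 lower for LN stromal genes. Quantile normalization also gave 0 higher for endothelial genes, and dropping the filter gave 1 higher for general epithelial genes. The cause was not tested. Without the BLS4 arrays the antibody differences of the 10 ran from -1.99 to 0.34, and without the BLS12 arrays from -0.29 to 0.38, both with no test. The antibody model paired the arrays by line, and its unpaired form is the one without the cell line term. The labels give no replicate numbers for any other pairing.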
